A study of Mus musculus with 18 samples.

Results

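The genes described here are complement components and receptors in mouse bone marrow-derived macrophages. The rule took every probe set, a group of short probes that reads 1 transcript, that was assigned to only 1 of 9 gene symbols. These were the C1q chain genes C1qa, C1qb and C1qc, the component gene C3, the alternative pathway genes Cfb and Cfp, the receptor genes C3ar1 and C5ar1, and the C1 inhibitor gene Serping1. Of these 9 genes, 8 had a probe set (11 probe sets, of 45037 without controls), and 17097 genes were tested in all. C3 had no probe set under that symbol in the annotation used and was not analysed here.

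The cells came from marrow of male FVB/NJ mice aged 10 to 14 weeks, either wild type (WT) or lacking Klf3 (knockout, KO). Klf3 encodes a Krüppel-like factor, a DNA-binding protein known mainly as a repressor of transcription. They were grown for 7 to 10 days with medium conditioned by L929 cells, which supplies the macrophage growth factor M-CSF, and were then moved to regular medium without it. Cells of each genotype were harvested at once (0 h), or 8 h after addition of phosphate-buffered saline (vehicle) or of lipopolysaccharide (LPS, 100 ng/mL), a bacterial outer membrane component. That gave 6 groups of 3 arrays, 18 in all, of an Affymetrix mouse expression array that is labelled from the 3' end of the transcript. The labels do not describe how the Klf3 allele was made, or whether arrays of a group came from separate mice or cultures, so a p-value here reflects array-to-array spread alone, which may be technical.

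Complement is a protein cascade that tags microbes and dying cells and calls in phagocytes. C1q binds antibody-coated or apoptotic targets and starts the classical pathway, while factor B (Cfb) and properdin (Cfp) form and stabilise the C3-cleaving enzyme of the alternative pathway. The fragments released are read by the receptors C3aR and C5aR1 on myeloid cells, and the C1 inhibitor blocks the C1 proteases. Most plasma complement is made by the liver, but macrophages are a main source of C1q, and LPS is a known inducer of Cfb in them.

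Levels are log2 intensities after quantile normalization. A level was judged against the nonspecific level of its array, the 95th percentile of 23 control probe sets that match no transcript, which ran from 3.71 to 4.54. All 9 macrophage markers that were measured, of 10 listed, lay above it in all 18 arrays, while the 4 dendritic cell and the 4 hepatocyte markers measured lay at or under it in all 18. The same held for the 5 mast cell markers, and for 4 of 8 neutrophil, 4 of 7 T and NK cell, 3 of 4 B cell, 6 of 8 stromal, 2 of 5 endothelial, 2 of 3 adipocyte and 1 of 3 erythroid markers. Neutrophil Mmp8, endothelial Kdr and Vwf and adipocyte Fabp4 were above the level in all 18 arrays, S100a8 in the 12 vehicle and LPS arrays, and Camp in the 6 LPS arrays. After LPS the summed intensity of the 8 neutrophil markers ran from 558 to 896 in WT and from 535 to 706 in KO cells. The summed intensity of the 9 macrophage markers ran from 35326 to 37541 in WT cells and from 31902 to 33451 in KO cells after LPS. Single markers differed: mean levels in WT and KO cells were 11.75 and 10.46 for Fcgr1, 10.38 and 9.28 for Mrc1, and 12.95 and 13.11 for Cd14. Mertk, Cd14 and Lgals3 had the higher mean in KO cells, and the rest in WT cells. The part of these markers in the genotype differences below was not tested. Between 52.4% and 58.7% of genes were above the nonspecific level per array, and the median deposited intensity ran from 11.4 to 18.6. Of 6 Klf3 probe sets, 1 read 7.01 to 8.20 with WT and 2.47 to 4.12 with KO RNA. Others without overlap read 7.04 to 8.45 (WT) and 5.20 to 5.88 (KO), and 8.20 to 9.46 (WT) and 6.08 to 7.45 (KO). The rest overlapped between the genotypes, among them 1 at 6.86 to 8.34 with WT and 7.36 to 9.22 with KO RNA. The labels do not say which part of the gene was deleted. Each treatment occupied plate rows of its own, and the effects of row and of treatment cannot be told apart. In RNA from a whole culture, fewer cells of a type and less RNA per cell cannot be told apart.

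C1qb and C1qc are neighbours on chromosome 4, on the same strand, with C1qa beside them, and both were lower in KO than in WT cells after LPS. Their promoter windows, from 250 bases before to 50 bases after the transcript start, are shown because KLF proteins recognise the CACCC box; every CACCC and its complement on the other strand, GGGTG, is in capitals. The windows are from RefSeq, GRCm38.p6, on the minus strand, at chr4:136886151-136886450 for C1qb and chr4:136892865-136893164 for C1qc.
C1qb: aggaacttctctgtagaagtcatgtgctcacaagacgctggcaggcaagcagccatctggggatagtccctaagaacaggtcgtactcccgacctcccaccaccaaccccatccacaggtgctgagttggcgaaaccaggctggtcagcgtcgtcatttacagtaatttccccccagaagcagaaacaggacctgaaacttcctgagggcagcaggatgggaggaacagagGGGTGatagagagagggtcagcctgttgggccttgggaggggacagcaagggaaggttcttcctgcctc
C1qc: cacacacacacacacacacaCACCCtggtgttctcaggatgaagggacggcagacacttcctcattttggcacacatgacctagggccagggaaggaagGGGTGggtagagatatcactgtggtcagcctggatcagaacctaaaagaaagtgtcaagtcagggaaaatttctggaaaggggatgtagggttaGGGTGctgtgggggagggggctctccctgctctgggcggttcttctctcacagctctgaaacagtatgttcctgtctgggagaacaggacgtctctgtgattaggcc
C1qb holds 1 such match, 19 bases before the start, and C1qc holds 3, at 230, 151 and 57 bases before it. Windows were matched by symbol for 5 of the 8 genes, C1qb, C1qc, C3ar1, C5ar1 and Cfp. All 5 hold CACCC on 1 strand or the other, as do 57.5% of the 32851 windows of that length. GAGGAA, the letters of a PU.1-type site (PU.1 is a macrophage lineage factor), is in the windows of C1qb, C1qc and Cfp and in 28.3% of all windows. A strict NF-kB-type motif is in that of C3ar1 alone, 14 bases before the start, and in 1.63% of all windows. A looser form, which covers every match of the strict one, is in all but that of C5ar1 and in 50.8% of all windows. TTCNNNGAA (STAT type), TTGCNNAA (C/EBP type) and an interferon-response-type motif are in none of the 5 and in 8.30%, 10.8% and 3.44% of all windows. All motifs were searched on both strands. A match describes letters in the window and nothing about binding.

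**Figure D1:**
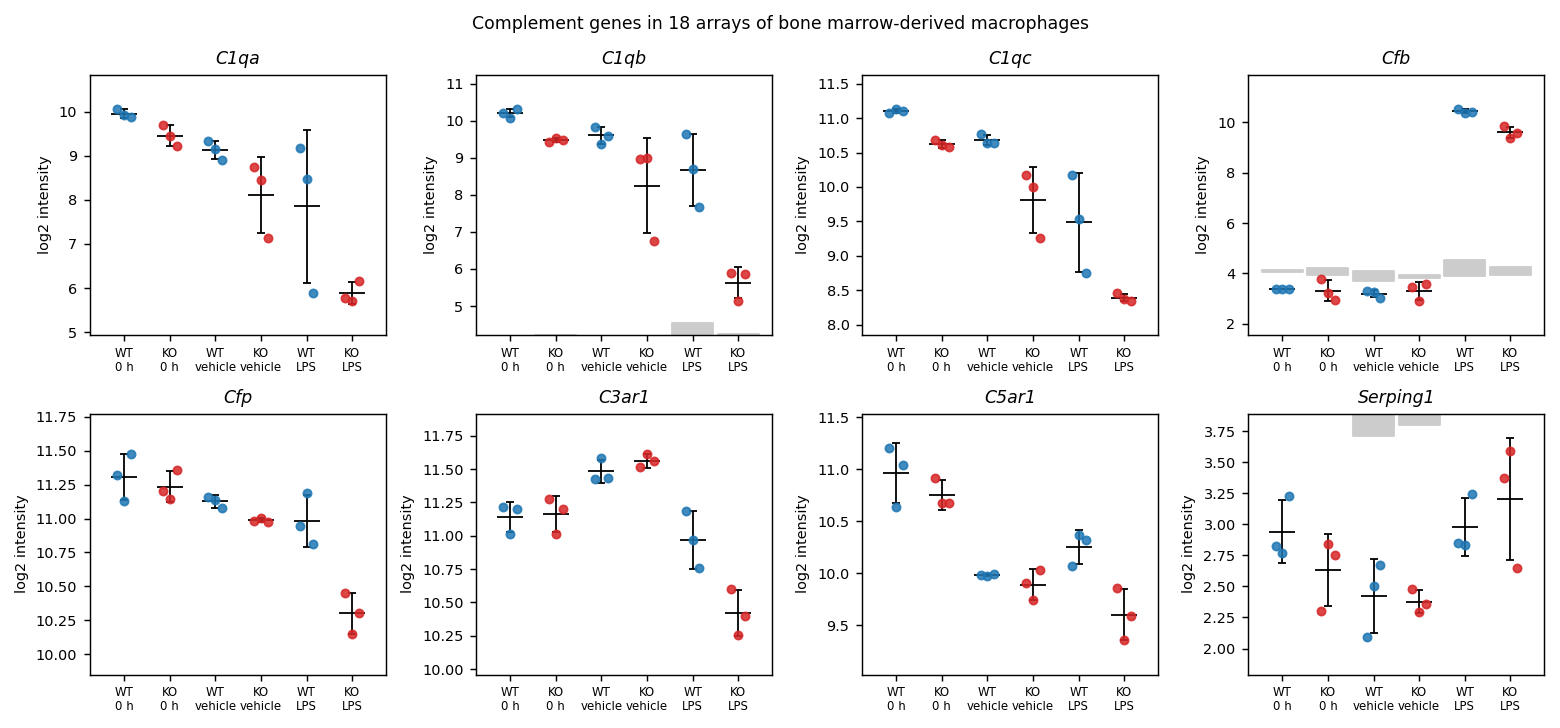
Log2 intensity of the 8 complement genes (y axis, its own scale in each panel) in the 6 groups (x axis). Points are single arrays, WT blue and KO red, in the order array 1 to 3, black marks are the mean ± SD of 3 arrays, and grey bands span the nonspecific level of the group's arrays where they fall within the panel. Cfb is above its band only in the 6 LPS arrays, and the C1q genes are lowest in the KO LPS group.

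The classical pathway recognition molecule was read by 1 probe set per chain. At 0 h C1qa read 10.06, 9.93 and 9.87 in WT cells and 9.69, 9.46 and 9.23 in KO cells. After vehicle it read 9.33, 9.16 and 8.91 in WT cells and 8.75, 8.45 and 7.13 in KO cells. After LPS it read 9.18, 8.48 and 5.89 in WT cells and 5.77, 5.71 and 6.17 in KO cells. The KO arrays were below all WT arrays at 0 h and after vehicle, whereas after LPS WT array 3 lay among the KO arrays. That array, and array 3 of the KO vehicle group, were the lowest of their groups for all 3 chains.

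At 0 h C1qb levels were 10.21, 10.09 and 10.32 (WT) and 9.44, 9.54 and 9.48 (KO). After vehicle its levels were 9.84, 9.38 and 9.60 in WT and 8.98, 8.98 and 6.76 in KO cells. After LPS they were 9.64, 8.69 and 7.68 in WT and 5.88, 5.14 and 5.86 in KO cells. WT and KO arrays of C1qb overlapped in none of the 3 conditions. C1qc, the brightest of these probe sets, read 11.07, 11.13 and 11.10 (WT) and 10.69, 10.61 and 10.57 (KO) at 0 h. It read 10.77, 10.64 and 10.64 in WT and 10.17, 10.00 and 9.26 in KO cells after vehicle. After LPS it read 10.17, 9.54 and 8.74 in WT and 8.46, 8.38 and 8.35 in KO cells, again with no overlap in any condition.

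Of the alternative pathway genes, Cfb lay under the nonspecific level in all 12 arrays without LPS (2.92 to 3.77). After LPS it read 10.53, 10.39 and 10.42 in WT cells and 9.84, 9.38 and 9.58 in KO cells, above the level in all 6 and without overlap between the genotypes. Cfp was high throughout. At 0 h it read 11.32, 11.13 and 11.47 (WT) and 11.21, 11.14 and 11.36 (KO), and after vehicle 11.16, 11.14 and 11.08 (WT) and 10.979, 11.003 and 10.978 (KO). After LPS it read 10.95, 11.19 and 10.81 in WT and 10.45, 10.15 and 10.30 in KO cells, so that the KO LPS arrays were below the other 15.

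The receptors were bright in every array. C3ar1, by its brightest probe set, read 11.22, 11.01 and 11.20 (WT) and 11.27, 11.01 and 11.20 (KO) at 0 h. After vehicle it read 11.43, 11.58 and 11.44 in WT and 11.51, 11.61 and 11.56 in KO cells, all above the 12 other arrays. After LPS it read 11.19, 10.97 and 10.75 in WT and 10.60, 10.26 and 10.40 in KO cells. C5ar1 was highest at 0 h, at 11.20, 10.64 and 11.05 in WT and 10.92, 10.67 and 10.67 in KO cells. It read 9.98, 9.97 and 9.99 in WT and 9.90, 9.74 and 10.03 in KO cells after vehicle, and 10.07, 10.37 and 10.32 in WT and 9.85, 9.36 and 9.59 in KO cells after LPS. The KO LPS arrays of both receptors were below all WT LPS arrays, a pattern that C1qb, C1qc, Cfb and Cfp shared and that 10.1% of all genes had. Serping1 read 2.09 to 3.59 and was under the nonspecific level in all 18 arrays, so its fitted differences are given without a fold.

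In the order of the group means, C1qc ran from WT at 0 h (11.10 ± 0.03, SD, n = 3 arrays) through WT vehicle (10.68 ± 0.08), KO at 0 h (10.62 ± 0.06), KO vehicle (9.81 ± 0.48) and WT LPS (9.49 ± 0.72) to KO LPS (8.39 ± 0.06). WT vehicle and KO at 0 h overlapped, as did KO vehicle and WT LPS. C1qb had the order WT at 0 h (10.20 ± 0.11), WT vehicle (9.61 ± 0.23), KO at 0 h (9.49 ± 0.05), WT LPS (8.67 ± 0.98), KO vehicle (8.24 ± 1.28) and KO LPS (5.63 ± 0.42). The 4 middle groups of C1qb each overlapped the next. C1qa ran from WT at 0 h (9.95 ± 0.10) through KO at 0 h (9.46 ± 0.23), WT vehicle (9.13 ± 0.21), KO vehicle (8.11 ± 0.86) and WT LPS (7.85 ± 1.73) to KO LPS (5.89 ± 0.25). For C1qa, KO at 0 h overlapped WT vehicle, and the last 3 groups each overlapped the next. The KO LPS group was thus the lowest of the 6 for all 3 chains. The group means spanned 4.07 (C1qa), 4.58 (C1qb), 2.71 (C1qc), 7.25 (Cfb), 1.01 (Cfp), 1.14 (C3ar1) and 1.36 (C5ar1) log2 units.

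With LPS against vehicle in WT cells, 1 gene of the set rose, Cfb. Its log2 difference was 7.25 ± 0.20 (± SE, adjusted p = 3.59e-13 by limma's moderated test), at least 93.9-fold against the nonspecific level, and 4 of 17097 genes had a larger difference. C1qc fell by 1.20 ± 0.27 on the log2 scale (adjusted p = 0.00198), or 2.29-fold, and C3ar1 fell by 0.51 ± 0.13 (adjusted p = 0.00508), or 1.43-fold. C1qa (-1.28 ± 0.58, adjusted p = 0.108) and C1qb (-0.94 ± 0.49, adjusted p = 0.176) did not pass; their SD over the 3 WT LPS arrays was 1.73 and 0.98, and without WT replicate 3 they were at -0.41 and -0.44. Cfp differed by -0.14 (adjusted p = 0.445), C5ar1 by 0.27 (adjusted p = 0.214) and Serping1 by 0.55 (adjusted p = 0.0773). Counted together, 1 of 8 genes was higher and 2 were lower, against 32.3% of all genes called (13.7% higher and 18.7% lower). The median difference was -0.33 over the 8 genes and -0.01 over all genes. For C3ar1 the call was lost with equal medians (-0.30, adjusted p = 0.309) or equal hybridisation controls (-0.68, adjusted p = 0.106), without WT replicate 3 (-0.43, adjusted p = 0.062) and without WT replicate 2 (-0.46, adjusted p = 0.0544). C1qa and C1qb passed with unscaled values (adjusted p = 0.0154 and 0.0304) and with equal hybridisation controls (0.000468 and 0.00374). In these 2 settings the median over all genes was -0.44 and -0.43, so most genes lay lower after LPS. Relative to the WT median C1qa was at -1.34 and C1qb at -0.98, against -1.27 and -0.93 with quantile normalization. Other genes moved more: C3ar1 was at -0.25 relative to that median, against -0.50, and Cfp at 0.14, against -0.14. C1qa also passed with array weights (adjusted p = 0.0362) and without WT replicate 1 (-1.85, adjusted p = 0.0476).

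In KO cells Cfb also rose with LPS, and all 3 C1q genes, Cfp and C3ar1 fell. Cfb rose by 6.29 ± 0.20 (log2, adjusted p = 2.13e-12), at least 52.1-fold. C1qb fell by 2.61 ± 0.49 (adjusted p = 0.00048), or 6.13-fold. C1qa fell by 2.22 ± 0.58 (adjusted p = 0.00606), or 4.67-fold, and C1qc fell by 1.42 ± 0.27 (adjusted p = 0.000435), or 2.67-fold. C3ar1 fell by 1.14 ± 0.13 (adjusted p = 2.51e-06) and Cfp fell by 0.69 ± 0.12 (adjusted p = 0.000327). C5ar1 differed by -0.29 ± 0.16 (adjusted p = 0.178). Serping1 passed as fitted (0.83, adjusted p = 0.00888), but all of its arrays lay under the nonspecific level. With each value lifted to at least that level, the difference was 0.18 (adjusted p = 0.304). That made 2 of 8 higher and 5 lower, against 34.5% of all genes called (13.9% higher and 20.6% lower). The median was -0.91 over the 8 genes and -0.03 over all. The call of Cfp was lost with equal medians, unscaled values or equal hybridisation controls (adjusted p = 0.266, 0.163 and 0.584), and that of C3ar1 with hybridisation controls (0.0639). Relative to the median over all genes, Cfp was at -0.37 and C3ar1 at -0.84 in each of these settings. With quantile normalization they were at -0.65 and -1.11. C1qa (-2.38) and C1qb (-2.74) were instead further from that median than with quantile normalization (-2.19 and -2.58). The call of C1qa was lost without KO replicate 1 (-1.85, adjusted p = 0.0906) and without KO replicate 2 (-1.97, adjusted p = 0.0819).

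**Figure D2:**
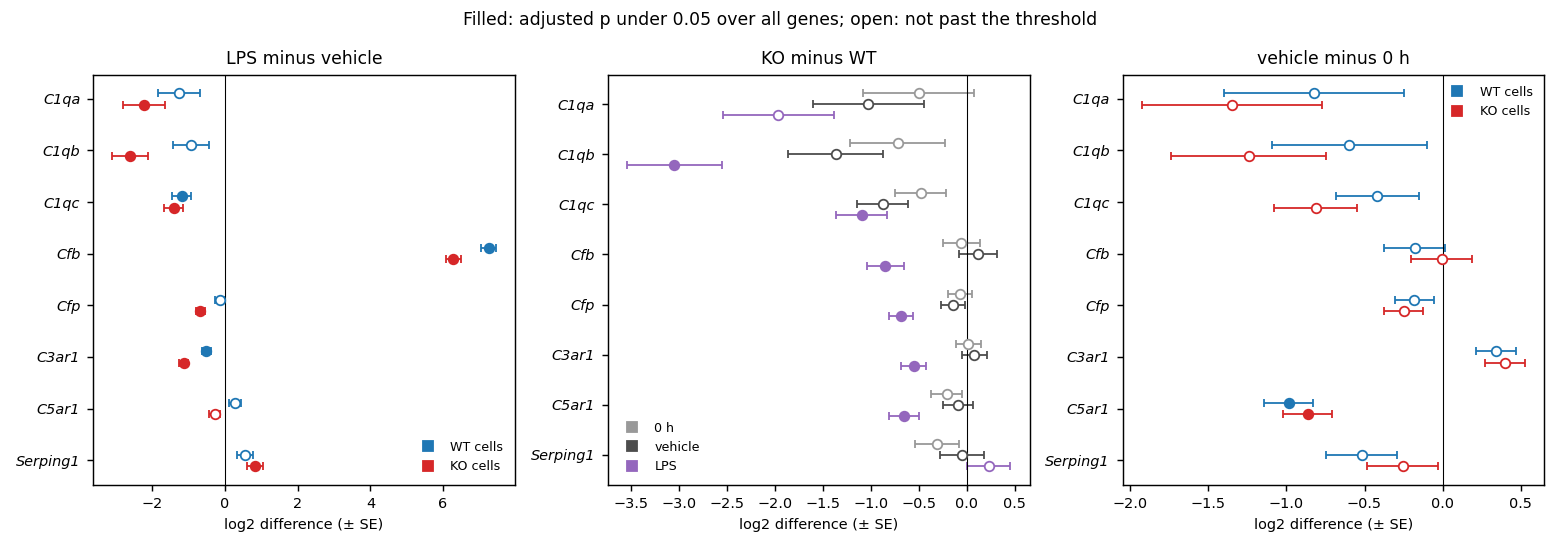
Log2 differences (x axis, ± SE from the fit over 18 arrays) of the 8 genes (y axis) for LPS minus vehicle, KO minus WT and vehicle minus 0 h. Filled points passed an adjusted p of 0.05 over all genes. In the middle panel, 6 genes are filled after LPS and none at 0 h or after vehicle.

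Whether the LPS response differed between the genotypes was tested as an interaction, the KO difference minus the WT difference. No gene of the 8 passed, against 1.11% of all genes. By limma 5 of the 8 had an unadjusted p under 0.05. The share of all genes under that p is not given here, so no excess can be read from the count. Of the 8 values, 7 were negative: C1qb -1.68 ± 0.70 (adjusted p = 0.335), Cfb -0.97 ± 0.28 (adjusted p = 0.128), C1qa -0.94 ± 0.82 (adjusted p = 0.711), C3ar1 -0.63 ± 0.18 (adjusted p = 0.129), C5ar1 -0.56 ± 0.22 (adjusted p = 0.298), Cfp -0.54 ± 0.18 (adjusted p = 0.187) and C1qc -0.22 ± 0.37 (adjusted p = 0.878). Serping1 was at 0.27 (adjusted p = 0.8). The C1q values rest on WT LPS array 3 and KO vehicle array 3. Without both, the interaction was -2.92 ± 0.36 for C1qb (adjusted p = 0.000664), -2.41 ± 0.30 for C1qa (adjusted p = 0.000668) and -0.87 ± 0.21 for C1qc (adjusted p = 0.046). These 2 arrays were left out after their C1q values had been seen, so those p-values describe the remaining arrays and are no independent test. Cfb passed when values were lifted to the nonspecific level (-0.85, adjusted p = 0.0198), and C3ar1 passed with a trended robust prior (adjusted p = 0.0374). C1qc turned positive with unscaled values (0.12), with equal hybridisation controls (0.16) and without WT replicate 1 (0.08). With hybridisation controls Cfp was at -0.06, C5ar1 at -0.06 and C3ar1 at -0.14, while C1qb was at -1.31, Cfb at -0.62 and C1qa at -0.58. The median over all genes was 0.48 in that setting.

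After LPS, KO cells had less signal than WT cells for 6 of the 8 genes, among them C1q, alternative pathway and receptor genes. C1qb was lower by -3.04 ± 0.49 (log2, adjusted p = 0.00136), or 8.25-fold, with 4 genes of 17097 lower still. C1qc was lower by -1.09 ± 0.27 (adjusted p = 0.0216), or 2.13-fold, and Cfb by -0.85 ± 0.20 (adjusted p = 0.0163), or 1.80-fold. Cfp was lower by -0.68 ± 0.12 (adjusted p = 0.00334), C5ar1 by -0.65 ± 0.16 (adjusted p = 0.0202) and C3ar1 by -0.55 ± 0.13 (adjusted p = 0.0171), which are 1.61-fold, 1.57-fold and 1.47-fold. C1qa was at -1.96 ± 0.58 (adjusted p = 0.0571), and its arrays overlapped. It moved with single arrays, to -1.30 (adjusted p = 0.224) without WT replicate 1 and to -2.94 (adjusted p = 0.00048) without WT replicate 3, and passed under 6 of the 20 alternatives. Serping1 was at 0.23 (adjusted p = 0.657). The 6 of 8 lower compare with 3.15% of all genes called lower and 5.97% called in either direction (2.82% higher), and the median was -0.76 over the 8 genes and -0.02 over all. These shares are a description, since the members were chosen with earlier results of these data known. All genes also include dim ones, as 10334 of the 17097 were above the nonspecific level in at least 3 arrays.

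How many of these 6 passed depended on the scaling and on single replicates. C1qb passed under all 20 alternatives, with adjusted p between 5.04e-07 and 0.0485. It was the only one of the 8 genes to pass with the arrays set to equal medians, with the deposited values unscaled, or with only the LPS groups in the fit. With the arrays set to equal hybridisation controls, C1qb and C1qa passed. The median difference over all genes was 0.07 with equal medians, 0.29 unscaled and 0.36 with hybridisation controls, against -0.02 with quantile normalization. These 3 settings differ only by a constant per array, so relative to that median they give 1 value per gene by construction. In this form C1qc was at -1.15, Cfb at -0.88, Cfp at -0.71, C5ar1 at -0.66 and C3ar1 at -0.56. With quantile normalization these were -1.07, -0.83, -0.66, -0.64 and -0.53. As fitted, without taking off that median, the same genes were nearer to no difference. They were at -0.86, -0.59, -0.42, -0.37 and -0.27 unscaled, and at -0.79, -0.52, -0.35, -0.30 and -0.19 with hybridisation controls. No sign among these 6 changed under any alternative. Leaving out 1 replicate left 2 to 5 genes past the threshold, lowest without WT replicate 2 or KO replicate 2.

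**Figure D3:**
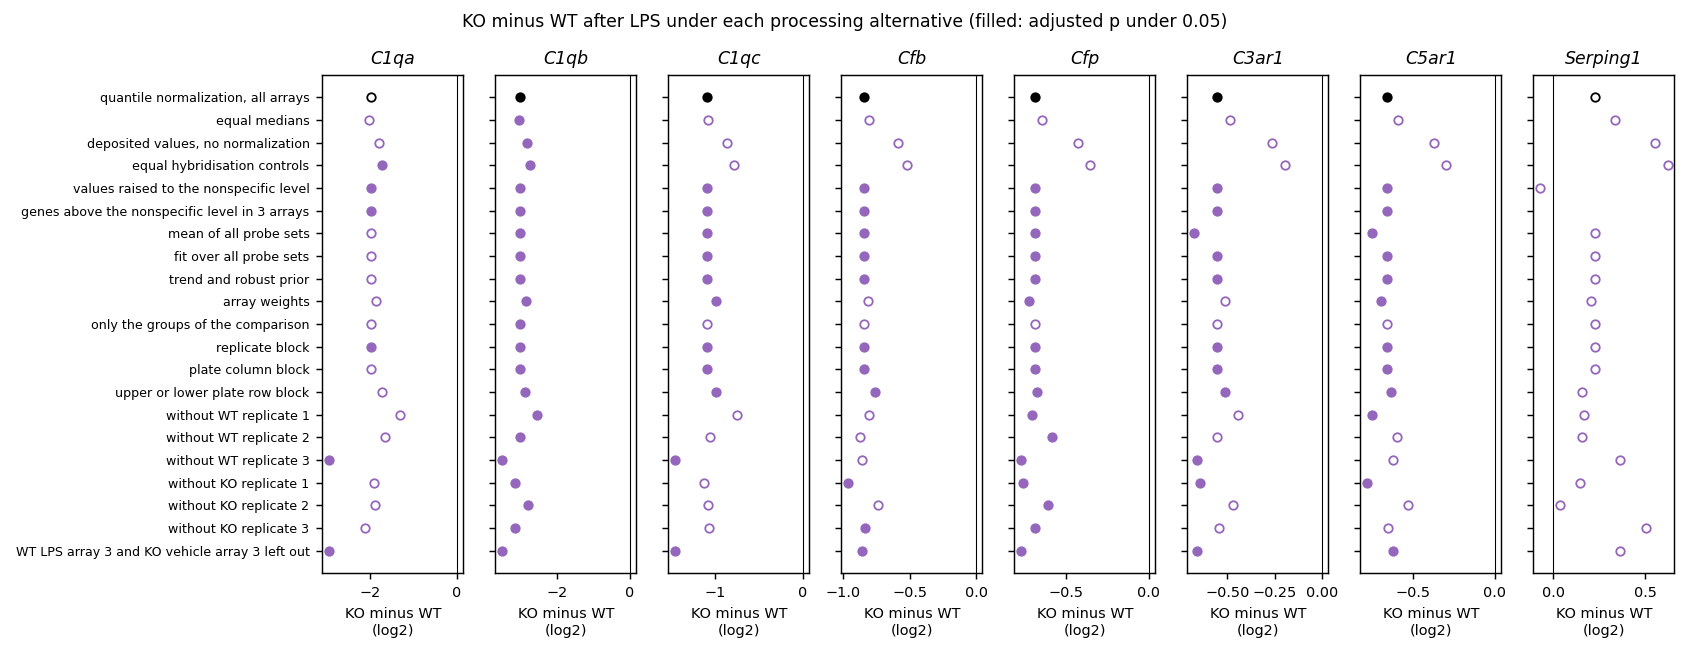
KO minus WT after LPS (x axis, log2, its own scale in each panel) for the 8 genes under quantile normalization with all arrays (black, top line) and each alternative (purple). Filled points passed an adjusted p of 0.05. C1qb is filled on every line, and Serping1 on none; Serping1 has no point where genes under the nonspecific level were left out.

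Without LPS no gene of the 8 passed between the genotypes. At 0 h, 0 of 8 passed by limma, against 0.14% of all genes, and 0 had an unadjusted p under 0.05. C1qa (-0.50), C1qb (-0.72) and C1qc (-0.48) had KO arrays below all WT arrays, a pattern seen in 7.02% of all genes. After vehicle, 0 of 8 passed, against 0% of all genes. C1qb and C1qc had an unadjusted p under 0.05 by limma, again without the share of all genes beside it. C1qa (-1.02), C1qb (-1.36), C1qc (-0.87) and Cfp (-0.14) had KO arrays below all WT arrays, as did 5.66% of all genes. Without KO vehicle array 3 the vehicle differences were -0.53, -0.62 and -0.60 for C1qa, C1qb and C1qc, close in size to those at 0 h. Cfb, C3ar1 and C5ar1 overlapped between the genotypes at both points, with differences of -0.05 and 0.12 (under the nonspecific level), 0.02 and 0.08, and -0.21 and -0.09.

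Averaging the 3 conditions before comparing the genotypes left C1qb as the only one of the 8 past the threshold, against 0.368% of all genes (0.123% lower). It was lower in KO cells by -1.71 ± 0.22 (log2, adjusted p = 0.0229), or 3.27-fold, and 1 gene of 17097 was lower still. C1qa was at -1.16 ± 0.30 (adjusted p = 0.205) and C1qc at -0.81 ± 0.15 (adjusted p = 0.0754), while Cfp, C5ar1, Cfb and C3ar1 lay between -0.32 and -0.15. The call of C1qb was lost without WT replicate 1 or 2, or KO replicate 2 or 3, where it ranged from -1.50 to -1.76 with adjusted p from 0.0734 to 0.0875. This average shares its arrays with the comparisons within each condition, so it is no separate evidence for them.

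Vehicle against 0 h follows cells through 8 h in regular medium, without the conditioned medium they were grown in. C5ar1, the receptor for the anaphylatoxin C5a, was the gene of the 8 that passed. It fell by 0.98 ± 0.16 on the log2 scale in WT cells (adjusted p = 0.000524), or 1.98-fold, and fell by 0.86 ± 0.16 in KO cells (adjusted p = 0.00158), or 1.82-fold. C3ar1 was at 0.34 ± 0.13 in WT (adjusted p = 0.0962) and 0.40 ± 0.13 in KO cells (adjusted p = 0.0523), with vehicle arrays above all 0 h arrays in both, as 18.6% (WT) and 17.7% (KO) of all genes had. The C1q genes were at -0.82, -0.60 and -0.42 in WT and -1.35, -1.24 and -0.81 in KO cells for C1qa, C1qb and C1qc, without passing, and had vehicle arrays below all 0 h arrays, as 17.8% (WT) and 16% (KO) of all genes had. In KO cells C1qc (adjusted p = 0.0563) passed under 12 of the 20 alternatives, and C3ar1 under 6. Without KO replicate 3 the KO values of C1qa, C1qb and C1qc were -0.97, -0.51 and -0.56. In each genotype 1 of 8 genes passed, against 14.2% of all genes in WT (7.01% lower) and 12.5% in KO cells (5.79% lower). For none of the 8 did the test of a genotype difference in this change pass by limma (0% of all genes passed, and 0 of the 8 had an unadjusted p under 0.05); for C5ar1 the difference of the changes was 0.12 ± 0.22.

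C3ar1 and C5ar1 were read by more than 1 probe set, fitted here over all probe sets. For LPS against vehicle the 3 C3ar1 probe sets gave -1.13, -0.51 and -0.94 in WT and -1.85, -1.14 and -1.42 in KO cells, lower and past the threshold in all 6 cases. For KO against WT after LPS they gave -0.94 (adjusted p = 0.064), -0.55 for the brightest and -0.54 (adjusted p = 0.0744). For vehicle against 0 h the other 2 C3ar1 probe sets lay between -0.11 and 0.18 and did not show the higher vehicle level of the brightest. Both C5ar1 probe sets were lower after vehicle than at 0 h, by -1.18 and -0.98 in WT and -1.26 and -0.86 in KO cells, and both were lower in KO than in WT cells after LPS (-0.84, adjusted p = 0.0423, and -0.65, adjusted p = 0.0328). They disagreed on LPS. The dimmer one gave -0.90 in KO cells (adjusted p = 0.00487), against -0.29 (adjusted p = 0.219) for the brighter, and in WT cells the signs were opposite (-0.32 and 0.27, neither past the threshold).

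The 3 C1q chains moved together over the 18 arrays. After subtraction of the group means, C1qa and C1qc correlated at r = 0.95, C1qb and C1qc at 0.90 and C1qa and C1qb at 0.83 over the 18 arrays, which share their RNA and scaling. These values weigh most on the groups with the widest spread, WT LPS and KO vehicle, where array 3 was lowest for each chain. In the other groups the chains did not always go together. KO LPS array 3 was the highest of its group for C1qa (6.17) and the lowest for C1qc (8.35). An RNA quality control on the array is the log2 signal at the 5' end of Gapdh minus that at its 3' end, which falls as RNA shortens. In WT LPS arrays 1 to 3 this control was -0.07, -0.50 and -0.75, and the levels of the 3 C1q genes were in the same order. In KO vehicle array 3 it was -0.32, against -0.14 and -0.19 in arrays 1 and 2. The group means at 0 h were 0.12 ± 0.02 (WT) and 0.09 ± 0.07 (KO), with -0.18 ± 0.10 and -0.21 ± 0.09 after vehicle, and -0.44 ± 0.34 and -0.47 ± 0.08 after LPS (SD, n = 3). The group means of the control thus differed between the treatments, which also lay in different plate rows. Its WT LPS arrays (-0.75 to -0.07) overlapped its WT vehicle arrays (-0.25 to -0.07). The part of the control in the C1q values was not tested.

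**Figure D4:**
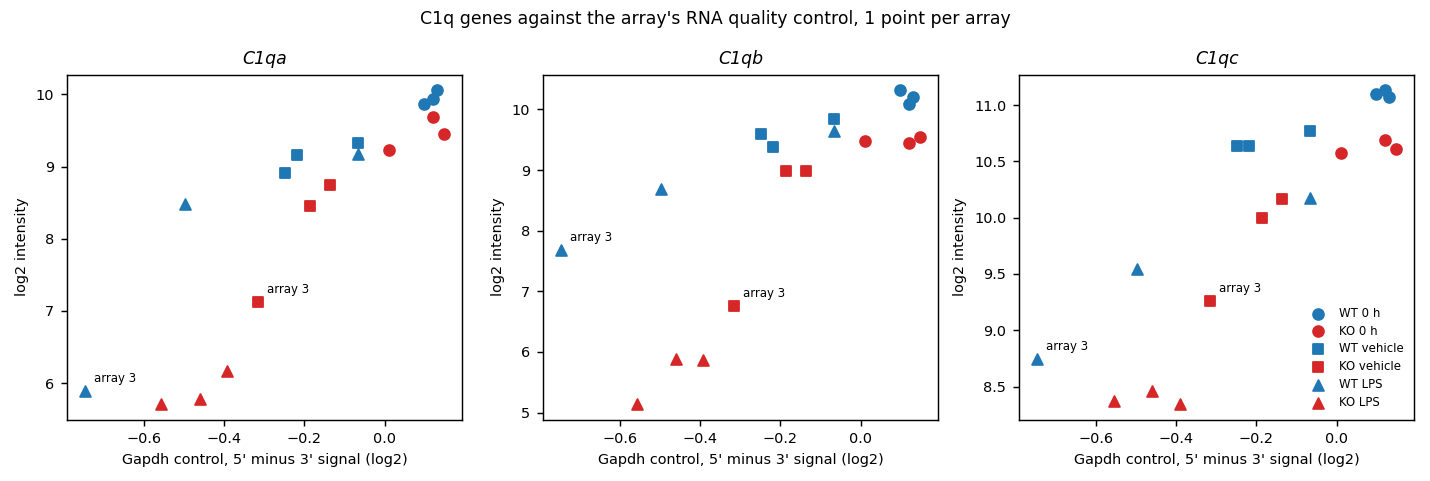
Log2 intensity of C1qa, C1qb and C1qc (y axes) against the Gapdh 5' minus 3' control (x axis, log2), 1 point per array, WT blue and KO red. Circles are 0 h, squares vehicle and triangles LPS. WT LPS array 3 and KO vehicle array 3 are marked; they have the lowest value of the control in their groups, -0.75 and -0.32.

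Genes whose pattern was most like each member were sought among the 10334 genes above the nonspecific level in at least 3 arrays, by Pearson correlation over the 18 arrays, which fall into few groups. For C1qa they were C1qc (0.98), Pla2g12a (0.96) and 5430427O19Rik (0.96). For C1qb they were Ly86 (0.97), Maged1 (0.96) and C1qc (0.95). C1qc was closest to C1qa, Fcrls (0.97) and Clec10a (0.96). Cfb was closest to Lcn2, the lipocalin 2 gene, Ptges, a prostaglandin E synthase gene, and Il1f6, an interleukin-1 family cytokine gene (all 0.99 or more). Cfp was closest to B4galt6 (0.96), Tinf2 (0.95) and Celf2 (0.94), C3ar1 to Slc6a6 (0.97), Ncoa1 (0.96) and Cttnbp2nl (0.95), and C5ar1 to Rap1gds1 (0.95), Mrps26 (0.94) and Unc119 (0.94). For Serping1, which lay under the nonspecific level, they were Rpl7l1 (0.88), Rpf2 (0.79) and Apbb1ip (0.79).

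Around these genes, a wider complement list of 51 genes had 44 on the array, 18 of them above the nonspecific level in at least 3 arrays. After LPS in WT cells 3 rose and 4 fell, 15.9% of the 44 against 32.3% of all genes (median -0.04 over the list, against -0.01 over all genes). The 4 largest were Colec12, a collectin scavenger receptor gene (-2.33 ± 0.38, adjusted p = 0.000143), C8g of the terminal pathway (-1.58, adjusted p = 0.00221; -0.53 once values were lifted to the nonspecific level), and the classical pathway genes C1rb (1.45, adjusted p = 0.00223) and C2 (1.22, adjusted p = 0.00986). The C2 call was lost with unscaled values, with hybridisation controls, with only the groups compared and without WT replicate 3 (adjusted p from 0.0609 to 0.088). In KO cells 4 passed as higher and 5 fell with LPS, 20.5% against 34.5% of all genes (median -0.09, against -0.03). Of the 4, Cd55 lay under the nonspecific level in all 18 arrays, and once values were lifted to that level Cd55 was at 0.18 (adjusted p = 0.304) and Ptx3 at 0.35 (adjusted p = 0.18). The largest were Colec12 (-1.76, adjusted p = 0.00151), the complement receptor subunit gene Itgax (1.68, adjusted p = 0.000774), the ficolin gene Fcna (-1.66, adjusted p = 0.00411; -1.11 and 0.115 without KO replicate 2) and Cd93 (-1.37, adjusted p = 2.4e-07).

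Between the genotypes after LPS, 3 genes of the wider list were lower in KO cells and 1 passed as higher, 9.09% of the 44 against 5.97% of all genes. C1ra, which encodes the C1r protease that C1q activates, read 7.63, 7.69 and 7.19 in WT and 5.88, 5.10 and 5.85 in KO cells, a difference of -1.89 ± 0.29 (log2, adjusted p = 0.000888). The near-identical C1rb, whose probe set may also read C1ra, read 5.14, 6.56 and 4.77 in WT and 3.23, 2.67 and 3.02 in KO cells (-2.52 ± 0.33, adjusted p = 0.00021). Its KO LPS arrays were all under the nonspecific level, and lifting each value to that level gave -1.42. Itgam, the alpha subunit of complement receptor 3, read 10.44, 10.49 and 9.83 in WT and 9.72, 8.86 and 9.71 in KO cells (-0.82 ± 0.23, adjusted p = 0.0436), a call lost under 11 of the 20 alternatives. Susd4 passed as higher (0.65, adjusted p = 0.0438) but lay under the nonspecific level in every array. The list's median was 0.01, against -0.02 over all genes.

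Fcna, which encodes ficolin A, a lectin pathway recognition protein, was the complement gene that was higher in KO cells before stimulation. At 0 h it read 6.84, 7.56 and 7.48 in WT and 9.52, 9.99 and 9.81 in KO cells, 2.48 ± 0.41 higher (log2, adjusted p = 0.0187), among 0.111% of all genes called higher there. It was at 2.13 after vehicle (adjusted p = 0.233) and 0.93 after LPS (adjusted p = 0.227), neither past the threshold, and over the mean of 3 conditions it was 1.85 ± 0.20 higher (adjusted p = 0.0103), a call lost without WT replicate 1 (adjusted p = 0.0695) or KO replicate 2 (adjusted p = 0.0635). The call at 0 h was lost without WT replicate 1, KO replicate 1 or KO replicate 2, with adjusted p from 0.0721 to 0.251 and differences from 2.26 to 2.61. Its direction was opposite to that of the C1q genes, also collagen-like recognition proteins, in the same arrays. No C1q gene passed at 0 h. From 0 h to vehicle, Cd59a, which encodes an inhibitor of the membrane attack complex, fell by 0.89 in WT and 0.61 in KO cells (adjusted p = 0.00284 and 0.0352). Cd93 fell by 0.65 and 0.73 (adjusted p = 0.00191 and 0.000985), and Colec12 rose by 1.27 in WT cells (adjusted p = 0.0334). The KO call of Cd59a was lost under 6 of the 20 alternatives (-0.44, adjusted p = 0.347 without KO replicate 1), and that of Colec12 under 7, among them each scaling and the loss of any WT replicate (adjusted p from 0.0501 to 0.148). With hybridisation controls the WT calls of Cd59a and Cd93 were lost too (adjusted p = 0.0556 and 0.246). The remaining 41 measured genes in WT and 42 in KO cells did not pass in that comparison.

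**Figure D5:**
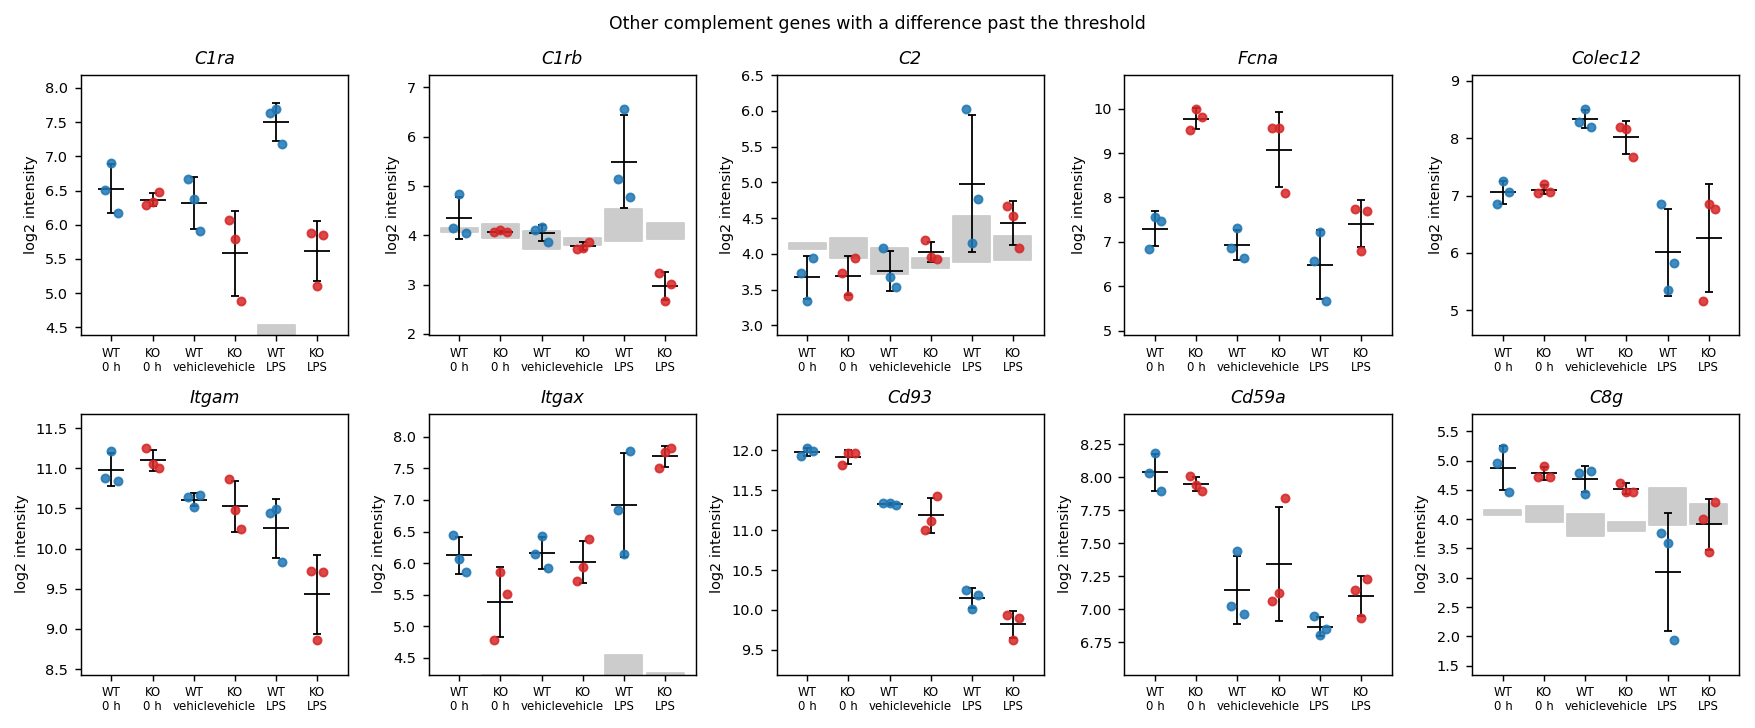
Log2 intensity (y axis, its own scale in each panel) of 10 further complement genes in the 6 groups (x axis), with points, means ± SD and grey bands as in the plot of the 8 genes. C1ra and C1rb are lower in the KO than in the WT LPS arrays, and Fcna is higher in the KO than in the WT arrays at 0 h.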

How the data were processed

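The members and gene lists were chosen with earlier results of these data known. The authors deposited linear intensity values for each probe set in each array. Partek is the tool that the submitters' processing notes name, and the sources used here give no version, background correction or scaling for it. Log2 was taken and all 45141 probe sets, including 104 controls later removed, were quantile-normalized over 18 arrays. The probe set with the highest mean stood for a gene, named through the platform annotation. A model with 1 mean per group over all 18 arrays was fitted with limma 3.58.1 in R 4.3.3. P-values are two-sided, moderated and Benjamini-Hochberg adjusted over 17097 genes per comparison, with a threshold of 0.05. In the comparison over 3 conditions, same-numbered arrays of a genotype were averaged first. "At least" folds set the dimmer group at the nonspecific level. "Raised" values were lifted to it. The named genes were the members, at most the 4 largest passing differences of the wider list per comparison, and the 3 nearest genes by correlation. The 20 alternatives, of which leaving out 2 arrays was chosen after seeing the data, covered scaling, low values, probe set choice, variance model, blocks and left-out replicates. The scripts were tested on simulated data. For arrays, their number limits the precision.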

Additional observations from a re-analysis of the deposited data

Results flagged for a closer look

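The LPS response of C1rb differed between the genotypes by the test of the interaction (-2.25 ± 0.46, log2, adjusted p = 0.0221 by limma). C1rb read 4.04 ± 0.16 after vehicle and 5.49 ± 0.95 after LPS in WT cells, and 3.78 ± 0.08 and 2.97 ± 0.28 in KO cells (mean ± SD, n = 3 arrays each). With values raised to the nonspecific level the difference was -1.29 (adjusted p = 0.167), and over the alternatives that ended the call adjusted p ran from 0.061 to 0.18.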

How the results depend on the processing

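Of 19 calls among the 8 genes, 8 passed under every alternative run, and no called value changed sign; 43 values of members that had not passed did. The number of the 8 genes past the threshold moved by over 1.5 times as follows. LPS in WT cells gave 5 in place of 3 with unscaled values. The interaction gave 1 in place of 0 with raised values, 1 with a trended robust prior and 3 without the 2 arrays that stood apart. KO against WT after LPS gave 1 in place of 6 with equal medians, 1 with unscaled values, 2 with equal hybridisation controls and 1 with only its own groups. Vehicle against 0 h in WT cells gave 2 in place of 1 with the filter on dim genes, 2 with the trended prior, 2 with array weights, 4 with only its own groups and 3 without the 2 arrays. In KO cells that count was 3 with equal medians, 2 unscaled, 4 with hybridisation controls, 3 with raised values, 3 with the filter, 3 with the trended prior, 4 with array weights, 3 with a plate row block and 3 without the 2 arrays, in place of 1. The mean of 3 conditions gave 3 with equal medians, 2 with hybridisation controls, 3 with raised values and 3 with the trended prior, in place of 1. Same-numbered arrays correlated between -0.08 and 0.14 in their deviations, which cannot show whether they shared a culture. Between WT and KO at 0 h they correlated at 0.05 to 0.11, against -0.07 to -0.003 for arrays of different numbers. In the other pairs of groups checked, these ranges overlapped. The replicate block gave 2 in place of 1 for vehicle against 0 h in KO cells and 3 in place of 1 for the mean of 3 conditions. Smaller moves were 4 for LPS in WT cells with hybridisation controls or array weights, 5 to 8 around 7 for LPS in KO cells, and 4 with array weights and 7 with the replicate block for KO against WT after LPS, where the block gained C1qa (adjusted p = 0.0334). Leaving out 1 replicate gave 2 to 4 for LPS in WT cells, 5 to 7 in KO cells, 2 to 5 for KO against WT after LPS, 1 to 3 for vehicle against 0 h in KO cells and 0 to 2 for the mean of 3 conditions. Susd4 after LPS reversed to -0.075 with raised values, which by construction set all of its arrays to their nonspecific level. For the other changes the cause was not tested. Genes past the threshold over the whole array ranged from 89 to 1382 around 1020 for KO against WT after LPS, and from 70 to 471 around 189 for the interaction. Removing both arrays was not applied to the mean of 3 conditions. Signal near the nonspecific level limits Cfb without LPS, and Serping1 throughout.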
